A study of Rattus norvegicus with 16 samples.

Results

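Propofol, an intravenous anesthetic given as a lipid emulsion, was set against Intralipos, a lipid emulsion without the anesthetic, in 4 regions of the rat brain. Of the 16 arrays of the series 8 belong to this comparison. They are the 4 titled Propofol and the 4 titled Intralipos, with 1 array for each of the lateral habenula (LHb), medial habenula (MHb), solitary nucleus (Sol) and medial vestibular nucleus (MVe). Male Wistar rats of 8 to 10 weeks were given 10 mg/kg of propofol at once and then 36 mg/kg in each hour, and the labels state the same amounts for Intralipos, whose lipid content was 10%. All rats breathed 40% oxygen at 6 L/min and were killed after 60 minutes. Regions were cut by laser from Nissl-stained sections of 30 µm, and 100 ng of total RNA went into the labelling of each array. The other 8 arrays, of sevoflurane and of O2 alone, were not used to test the effect of propofol. Each gene is described by the log2 difference between the propofol and the Intralipos array of the same region, and the 4 regions take the place of replicates. All 15037 annotated genes entered the test, each through its brightest probe set.

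Propofol strengthens inhibition through GABA-A receptors, the chloride channels opened by the transmitter GABA. Its carrier is not inert, because the triglycerides of such an emulsion are broken down to fatty acids, which are burned as fuel and activate the nuclear receptors of the PPAR family. An anesthetized animal and an awake one also differ in arousal and in stress hormones. Glucocorticoids enter the brain and switch on a known set of genes within the hour, Ddit4 and Nfkbia among them. Ddit4 encodes an inhibitor of the growth-signalling kinase complex mTORC1 that is induced by glucocorticoids, low oxygen and lack of energy. Nfkbia encodes the protein that holds the inflammatory transcription factor NF-kB in the cytoplasm.

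The tissue went with its labels for MHb, Sol and MVe. Averaged over the 8 arrays, 12 of 13 medial habenula markers were highest in MHb, 11 of 11 solitary nucleus markers in Sol and 10 of 10 vestibular markers in MVe. Only 2 of 10 lateral habenula markers were highest in LHb, although the mean level of the list was highest there, at 10.42, against 9.58 in MHb, 9.55 in Sol and 9.06 in MVe. The mean over all probe sets lay between 6.97 and 6.99 in the 8 arrays, while the sevoflurane and O2 arrays had means of 7.20 to 7.21. Levels are therefore compared within the set of 8 only. In this set the 90th percentile of the 1153 probe sets that the platform marks as negative lay between 6.95 and 7.44, and a gene below it on every array is called dim here. The labels do not tie regions to single rats, so arrays may share an animal and the p-values may then be too small. In dissected tissue, fewer cells of a type and less RNA per cell cannot be told apart.

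One gene passed the test. Ddit4 was lower after propofol, and of the 15037 genes it is the 0.00665% that had an adjusted p under 0.05 (1 lower and 0 higher). With no adjustment 1050 genes had a p under 0.05, which is 6.98% of all genes. Of these 594 were higher (3.95%) and 456 lower (3.03%). The median gene differed by 0.01 on the log2 scale, and 52.3% of genes were higher. A gene's differences varied over the 4 regions with a median SD of 0.32. The regional differences had little in common across genes, with Pearson correlations between -0.0003 for MHb with MVe and 0.08 for LHb with Sol. They reached 0.16, for MHb with Sol, among the 7609 genes whose mean level reached the median of all gene values. These are correlations across genes, which are not independent, and the signals of dim genes enter them. More than a 2-fold difference was seen for 1117 genes in at least 1 region, and for 1046 of them in 1 region alone. Ddit4 passed 2-fold in all 4 regions, always lower. Nfkbia, the antiviral gene Oas1a and the olfactory receptor gene Or4c110 were more than 2-fold lower in 3 regions, and Kl, which encodes the FGF coreceptor klotho, was more than 2-fold higher in 3.

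**Figure D1:**
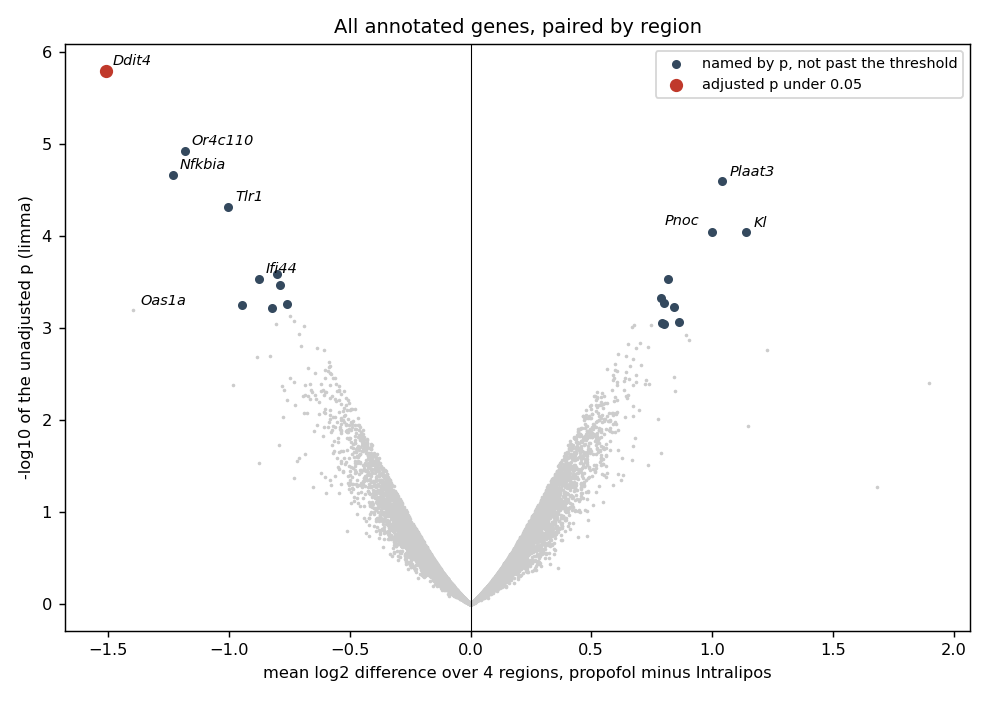
Mean log2 difference over the 4 regions, propofol minus Intralipos, on the horizontal axis and -log10 of the unadjusted p on the vertical axis, 1 point for each of the 15037 genes. Ddit4 (red) is the 1 gene with an adjusted p under 0.05, and the genes named by their p (dark) stand at the edges of both arms.

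Ddit4 had signals of 9.80, 8.97, 10.59 and 11.26 after propofol (LHb, MHb, Sol, MVe). After Intralipos its signals were 11.63, 10.28, 12.27 and 12.48 in the same order. In every region the propofol array was the lower one, although the ranges of both groups overlap because the regions themselves differ. The differences were -1.83, -1.30, -1.69 and -1.22 in LHb, MHb, Sol and MVe, with a mean of -1.51 ± 0.30 (SD over 4 regions). Ddit4 thus fell 2.85-fold on average (limma, adjusted p = 0.0242). In the sevoflurane arrays of the other set its signals ran from 8.99 to 11.82 and in the O2 arrays from 8.73 to 10.64. A lower level with propofol and a higher level with Intralipos cannot be told apart in a difference between both. Without the LHb, MHb, Sol or MVe pair the adjusted p became 0.372, 0.129, 0.229 and 0.0925 in that order, while the mean stayed between -1.61 and -1.40.

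**Figure D2:**
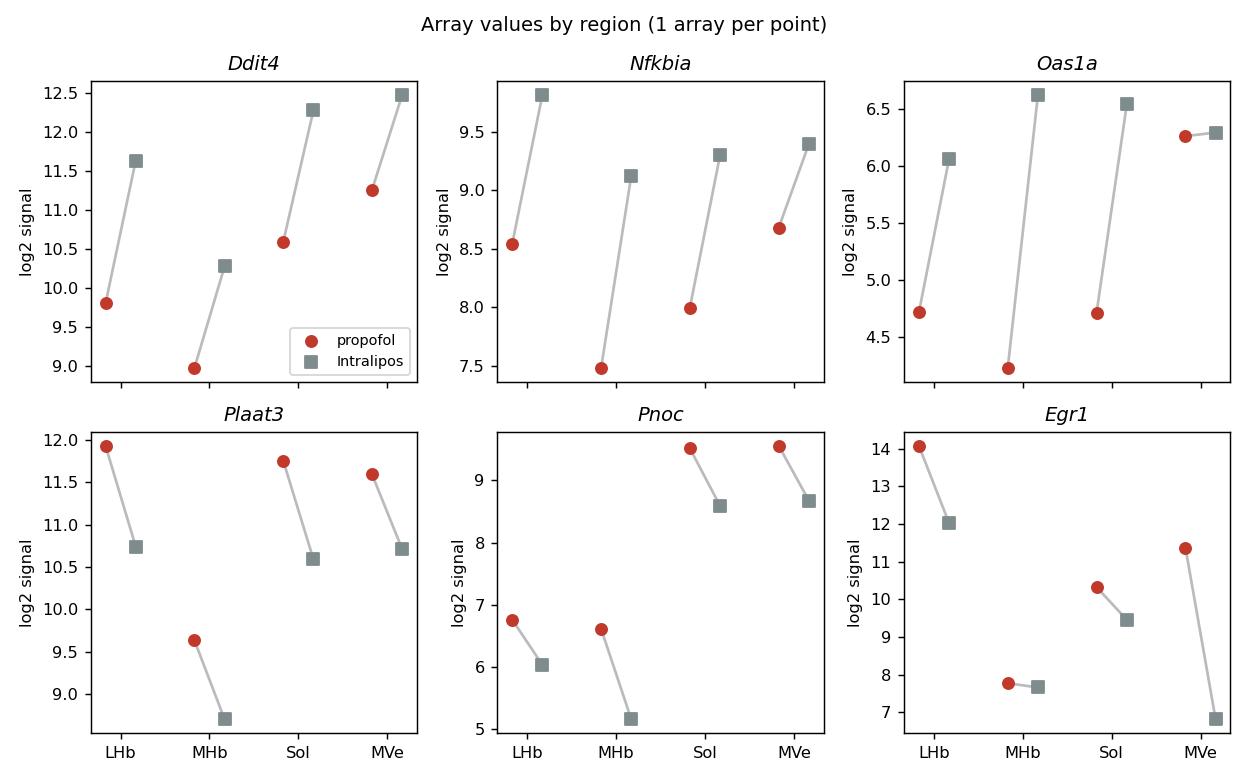
Log2 signal of 6 genes in each region, propofol (red circles) to the left of Intralipos (grey squares), 1 array per point, with a line joining the arrays of a region. Ddit4 and Nfkbia are lower and Plaat3 and Pnoc higher with propofol in every region, Oas1a is lower in all but MVe, where the arrays differ by 0.03, and Egr1 is farthest apart in MVe.

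The genes that glucocorticoids induce leaned toward lower values. Of 25 measured members 19 lay below 0, against 47.7% of all genes, and the median was -0.10, against 0.01 over all genes. With no adjustment 6 had a p under 0.05 and a lower level, against 3.03% of all genes, and 1 of these, Ddit4, passed the adjusted test. Sgk1, a kinase gene that promotes sodium uptake, had propofol signals of 12.14, 10.16, 9.05 and 12.38 in LHb, MHb, Sol and MVe, against 13.61, 11.32, 9.36 and 12.77 with Intralipos. It was lower in 4 of 4 regions, by far more in both habenular regions (-1.47 and -1.16) than in Sol and MVe (-0.31 and -0.39), and did not pass (limma, adjusted p = 0.681). Pdk4, a kinase gene that turns cells from glucose to fatty acids, was at -0.75 ± 0.54 (SD, n = 4 regions), with -1.31 in MHb and -0.03 in Sol. The next genes were chosen after their values were seen. The metallothionein gene Mt2A differed by nearly the same amount everywhere, between -0.44 and -0.27. Other classical members stood near 0, among them Fkbp5 at -0.04 and Tsc22d3, which encodes GILZ, at -0.10. The clock gene Per1 was at 0.30. The list median lay below 0 in each region, between -0.27 in Sol and -0.15 in MVe. Left without any 1 region, the list had 16 or 17 members below 0 and 5 or 6 at an unadjusted p under 0.05 and lower.

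Ddit4 also belongs to the genes of FoxO, insulin and mTOR signalling, where 8 of 17 measured members lay above 0, against 52.3% of all genes. The median was -0.03. At an unadjusted p under 0.05 1 was higher and 3, Ddit4 included, were lower, against 3.95% and 3.03% of all genes. The transcription factor genes Bcl6 and Foxo1, repressed or retained in the cytoplasm by insulin signalling, were at -0.57 ± 0.46 and -0.51 ± 0.36 (SD, n = 4 regions). Foxo1 was lower in 4 of 4 regions and Bcl6 in 3, with 0.10 in MVe. Txnip, a glucose-induced inhibitor of thioredoxin, was at 0.45 ± 0.45. None of these 3 passed limma's test.

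Ddit4 is also induced by low oxygen and by the integrated stress response, which answers to lack of amino acids and misfolded protein. Of 19 measured targets of the hypoxia factor HIF 8 lay above 0, with a median of -0.02. Of 20 stress response genes 7 lay above 0, with a median of -0.07. Over all genes 52.3% lay above 0. In each list Ddit4 was the 1 member lower at an unadjusted p under 0.05, against 3.03% of all genes. In each list 0 were higher, against 3.95% of all genes. The oxygen-regulated growth factor gene Vegfa was at 0.11 ± 0.13 and the asparagine synthetase gene Asns at 0.32 ± 0.29 (SD, n = 4 regions), both chosen after their values were seen.

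Nfkbia had signals of 8.54, 7.48, 8.00 and 8.68 after propofol (LHb, MHb, Sol, MVe). After Intralipos its signals were 9.82, 9.12, 9.30 and 9.40 in the same order. The groups do not overlap, since the highest propofol array lies below the lowest Intralipos array, which is the case for 0.771% of all genes in this direction (116 genes). The difference was -1.64 in MHb and -0.72 in MVe, and the mean was -1.23 ± 0.38 (SD, n = 4 regions). That did not pass (limma, adjusted p = 0.0961). Nfkbia ran from 7.73 to 8.35 in the sevoflurane arrays and from 7.45 to 8.21 in the O2 arrays of the other set.

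Nfkbia is induced by the factor it inhibits, and its promoter is printed for that reason beside the one of Ddit4. Both cover the 250 bases before the start in RefSeq's promoter table (GRCr8), 5′ to 3′ on the gene's own strand, which is the minus strand for both. Ddit4 is at chr20:28437038-28437287 and Nfkbia at chr6:78597073-78597322. The start is the one given there, and most of the Nfkbia window lies inside the gene's annotated span, which runs from 78593844 to 78597307. Capitals mark a match to the core NF-kB letters GGNNTTNCC (N is any base), searched on both strands.
Ddit4: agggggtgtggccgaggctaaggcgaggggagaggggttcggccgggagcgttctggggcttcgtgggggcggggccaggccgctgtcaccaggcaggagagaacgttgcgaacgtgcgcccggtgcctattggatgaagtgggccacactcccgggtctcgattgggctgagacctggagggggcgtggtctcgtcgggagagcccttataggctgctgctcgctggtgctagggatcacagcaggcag
Nfkbia: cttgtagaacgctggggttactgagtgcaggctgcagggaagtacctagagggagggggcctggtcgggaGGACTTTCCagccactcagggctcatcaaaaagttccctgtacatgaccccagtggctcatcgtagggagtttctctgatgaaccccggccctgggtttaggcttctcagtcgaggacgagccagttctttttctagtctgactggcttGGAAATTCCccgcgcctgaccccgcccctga
Nfkbia holds 2 matches, 180 to 172 bases before the start and, on the opposite strand, 31 to 23 bases before it. The letters occur in 13.3% of the 27457 promoters of the table and in 14 of 18 promoters of the NF-kB list (77.8%). Ddit4 holds no match to them in this window. Neither promoter has the letters ACANNNTGT, the core of a glucocorticoid response element, found in 5.62% of all promoters and in 1 of 23 of the glucocorticoid-responsive list. A match is a description of letters and not of a bound site.

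Of 20 measured NF-kB targets, Nfkbia included, 11 lay above 0, against 52.3% of all genes, and the median was 0.01. At an unadjusted p under 0.05 2 were higher and 1 lower, against 3.95% and 3.03% of all genes. The regions did not go together, with 17 of 20 above 0 in MVe and 14 of 20 below 0 in Sol. Without the MVe pair 7 lay above 0, the median was -0.09, and 1 was higher and 2 lower. Among the 14 with the letters in their promoters the mean differences ran from -1.23 for Nfkbia to 0.49 for the chemokine gene Cxcl10. Tnip1, which encodes another inhibitor of the pathway, was at 0.36 ± 0.24 (SD, n = 4 regions). The pathway's subunit gene Nfkb2 was at -0.84, -0.75, -0.62 and 0.54 in LHb, MHb, Sol and MVe, and Cxcl10 varied with an SD of 0.41. Nfkb2, Cxcl10 and Tnip1 were dim on all 8 arrays. The inflammatory cytokine gene Il6, chosen after its value was seen, was at -0.05.

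Interferon-stimulated genes, which cells switch on to resist viruses, had the lowest median of the 34 lists, at -0.34. Of 23 measured members 21 lay below 0, against 47.7% of all genes. With no adjustment 11 had a p under 0.05 and a lower level, against 3.03% of all genes, and 0 a higher one. In 4 of 4 regions 8 members were lower, against 6.68% of all genes, and 0 higher, against 8.36%. None (0) passed limma's adjusted test. The list median was -0.67 in LHb and -0.62 in MHb, -0.44 in Sol and -0.03 in MVe, where 11 of the 23 members lay above 0. The log2 of the summed level, which follows the brightest members, was 13.69 with propofol and 14.16 with Intralipos in MVe, and 14.32 with propofol and 14.77 with Intralipos in Sol. Ifi44 (-1.19) and Mx2 (-0.82) had their most negative values in MVe. Left without any 1 region, 19 to 21 members lay below 0 and 8 to 11 were lower at an unadjusted p under 0.05.

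Oas1a, which makes the messenger that activates RNase L, had propofol signals of 4.72, 4.23, 4.72 and 6.26 in LHb, MHb, Sol and MVe, against 6.06, 6.63, 6.54 and 6.29 with Intralipos. The propofol arrays were clearly lower in 3 regions and equal to within 0.03 in MVe. The mean was -1.40 ± 1.01 (SD, n = 4 regions), which did not pass (limma, adjusted p = 0.519). Ifi44, an interferon-induced gene of the antiviral response, was lower in all 4, by 0.97, 0.42, 0.93 and 1.19, and did not pass (0.447). Oasl2 was at -0.76 and Dhx58, an RNA sensor gene, at -0.69, each near 0 in MVe (0.06 and 0.16). Oas1a, Ifi44 and Dhx58 were dim on all 8 arrays.

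Brighter members went the same way. Of the 6 whose mean level reached the median of all genes, 5 were lower at an unadjusted p under 0.05, against 2.47% of the 7519 genes this bright, and their median was -0.49, against 0.03. These 5 are named after their values were seen. Ifi27 had propofol signals of 13.47, 13.13, 14.15 and 13.45 in LHb, MHb, Sol and MVe, against 13.87, 13.80, 14.59 and 13.97 with Intralipos, and its difference kept between -0.67 and -0.40. Bst2, which tethers budding viruses to the cell, was at -0.52, Irf9, a subunit of the interferon-activated transcription factor, at -0.54, Gbp2, a guanylate-binding GTPase, at -0.48 and the antiviral GTPase gene Mx2 at -0.43. Not all of these stood clear of the negative probe sets. With propofol Irf9 (6.64, 7.03 and 6.42) and Gbp2 (6.21, 7.10 and 7.01) lay under their 90th percentile in LHb, MHb and MVe. Mx2 did so in MVe (7.04). Stat2, the partner of Irf9, was the sixth, at 0.05, with 0.86 in LHb and -0.84 in Sol.

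The promoters of Oas1a and Ifi44, the most negative members, are printed because the list shares a known element, the interferon-stimulated response element. Its core letters GAAANNGAA on either strand were found in 11 of 16 promoters of the list (68.8%) and in 7.99% of all promoters. Both stretches are the 250 bases before the start in the same RefSeq table (GRCr8). Oas1a is at chr12:41330216-41330465 on the plus strand and Ifi44 at chr2:243303841-243304090 on the minus strand. These windows overlap in part the genes' annotated spans, which begin at 41330423 for Oas1a and end at 243303869 for Ifi44. Capitals mark the matches.
Oas1a: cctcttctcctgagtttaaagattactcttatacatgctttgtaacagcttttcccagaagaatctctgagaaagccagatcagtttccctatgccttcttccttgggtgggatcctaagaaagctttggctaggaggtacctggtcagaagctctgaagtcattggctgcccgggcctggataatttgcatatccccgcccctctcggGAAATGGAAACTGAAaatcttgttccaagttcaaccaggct
Ifi44: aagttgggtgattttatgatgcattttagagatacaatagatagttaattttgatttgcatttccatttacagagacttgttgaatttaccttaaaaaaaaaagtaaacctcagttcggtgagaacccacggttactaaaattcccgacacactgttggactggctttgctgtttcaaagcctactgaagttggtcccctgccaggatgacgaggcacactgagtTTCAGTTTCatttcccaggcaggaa
Oas1a holds 2 overlapping matches, 41 to 33 and 35 to 27 bases before the start. Ifi44 holds 1, 25 to 17 bases before the start and on the opposite strand. The 11 members with the letters had mean differences from -1.40 for Oas1a to -0.05 for its neighbour Oas1b.

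Microglia, the brain's resident immune cells, respond strongly to interferon, and the values of their markers stand beside the list here. Of 11 measured 6 lay above 0, against 52.3% of all genes. Their median was 0.10 over all regions, with -0.20 and -0.31 in LHb and MHb and 0.26 and 0.14 in Sol and MVe. The log2 of their summed level was 10.81 in LHb and 10.10 in MHb with propofol, against 10.92 and 10.38 with Intralipos. In Sol and MVe it was 11.88 and 10.00 with propofol, against 11.58 and 9.99. The complement genes C1qa and C1qb were at -0.25 and -0.33, and the chemokine receptor gene Cx3cr1 at 0.37. The microglial sum was lower with propofol in LHb and MHb, where the interferon list was at -0.67 and -0.62. It was higher in Sol, where that list was at -0.44, and nearly level in MVe, where that list was at -0.03. The part of microglia in the interferon values was not tested.

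**Figure D3:**
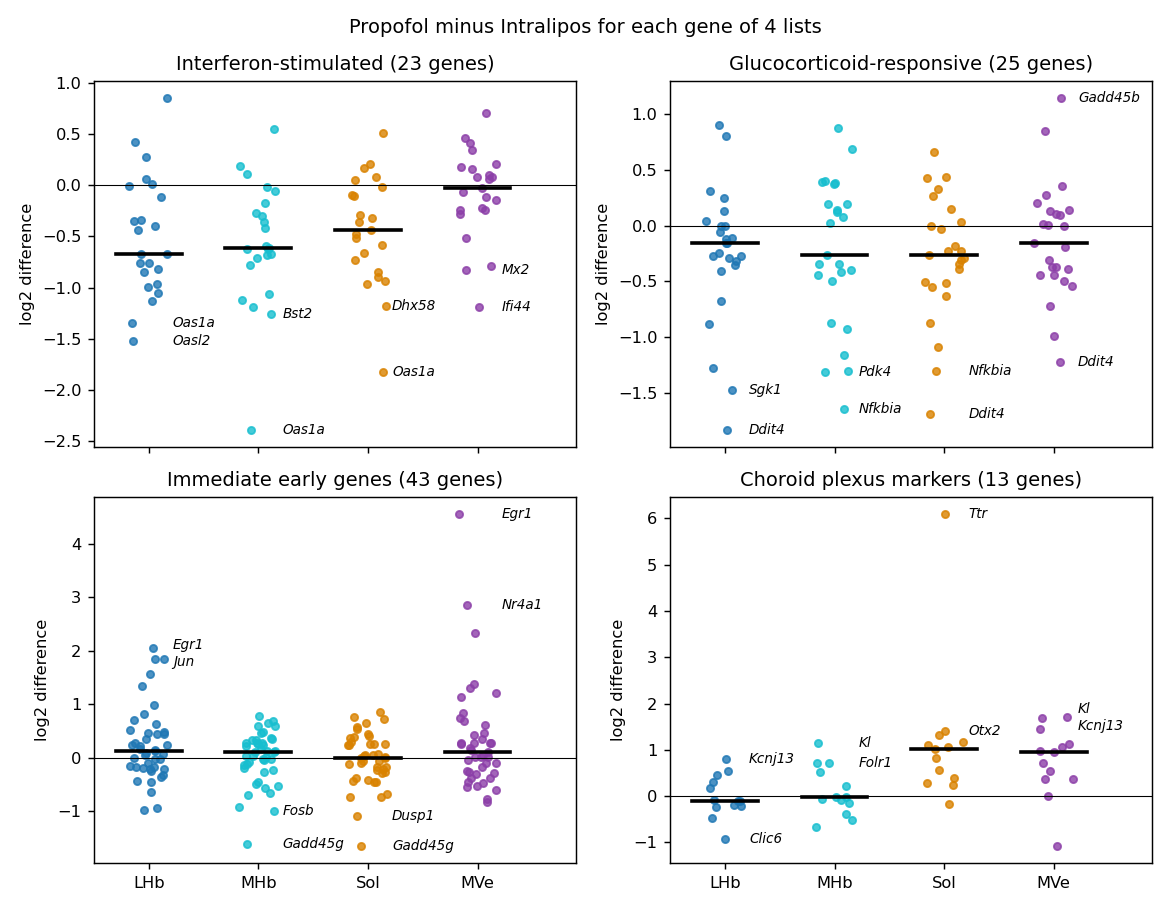
Log2 difference of each gene of 4 lists, propofol minus Intralipos, by region, with the list median as a bar and the 2 most distant genes named. Interferon-stimulated genes centre on -0.67, -0.62, -0.44 and -0.03 in LHb, MHb, Sol and MVe, single early genes such as Egr1 lie far above 0 in LHb and MVe, and choroid plexus markers lie above 0 in Sol and MVe.

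Plaat3 encodes a phospholipase and acyltransferase of membrane lipids. Its signals were 11.93, 9.64, 11.75 and 11.59 in LHb, MHb, Sol and MVe after propofol, against 10.74, 8.70, 10.59 and 10.71 after Intralipos. Each propofol array was the higher of its pair by a similar amount, 1.19, 0.93, 1.16 and 0.88. The mean of 1.04 ± 0.16 (SD, n = 4 regions) did not pass (limma, adjusted p = 0.0961). It ran from 9.43 to 12.55 in the sevoflurane arrays and from 10.04 to 12.48 in the O2 arrays. Of the 21 measured enzymes of the same lipid family and of acylethanolamine and endocannabinoid turnover, 15 lay above 0, against 52.3% of all genes, with a median of 0.06. Plaat3 was the 1 member higher at an unadjusted p under 0.05, against 3.95% of all genes, and 0 were lower, against 3.03%. The cytosolic phospholipase gene Pla2g4a was at 0.30 ± 0.40, the monoacylglycerol hydrolase gene Abhd6 at 0.29 ± 0.36 and the dim receptor gene Pparg at -0.25 ± 0.26.

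Genes that fatty acids induce through PPAR receptors went both ways, although both groups received lipid. Of 19 measured 8 lay above 0, against 52.3% of all genes, with a median of -0.05. At an unadjusted p under 0.05 2 were higher and 3 lower, against 3.95% and 3.03% of all genes. Retsat, a retinol saturase gene, had propofol signals between 11.52 and 12.05 in the 4 regions, against 10.41 to 11.38 with Intralipos. All 4 propofol arrays lay above all 4 Intralipos arrays, as for 0.479% of all genes (72 genes), and the mean of 0.73 ± 0.39 did not pass (limma, adjusted p = 0.668). Plin2, which coats lipid droplets, was at 0.39 ± 0.20 and Angptl4, an inhibitor of lipoprotein lipase, at -0.39 ± 0.29. Angptl4 was dim.

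Pnoc encodes the precursor of nociceptin, a peptide related to the opioids. Its signals were 6.76, 6.61, 9.51 and 9.56 in LHb, MHb, Sol and MVe after propofol, against 6.03, 5.15, 8.59 and 8.67 after Intralipos. The propofol array was higher in each region, by 0.73, 1.46, 0.92 and 0.88. In both habenular regions all 4 values lay under the 90th percentile of the negative probe sets, so the difference there is one between dim signals. The mean was 1.00 ± 0.32 (SD, n = 4 regions) and did not pass (limma, adjusted p = 0.196).

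Of the 8 measured opioid peptides and receptors, Pnoc included, 7 lay above 0, against 52.3% of all genes, with a median of 0.28. In MVe the list median was -0.05 with 3 members above 0, against medians of 0.50 in LHb, 0.17 in MHb and 0.81 in Sol. Penk, the enkephalin precursor gene, had propofol signals of 10.26, 5.62, 16.49 and 12.35 in LHb, MHb, Sol and MVe, against 8.96, 5.48, 15.38 and 11.94. It differed most in LHb and Sol (1.30 and 1.11) and least in MHb, where it was dim (0.13). Oprl1, the gene of the nociceptin receptor, was at 0.19, and Oprm1, of the mu receptor, at 0.28 with 0.64 in LHb and 0.70 in Sol. These 2 receptor genes were chosen after their values were seen. The kappa receptor gene Oprk1 was at 0.31 ± 0.80 and the delta receptor gene Oprd1 at -0.30 ± 0.55. Pnoc and Penk were the members with an unadjusted p under 0.05 (2 higher, against 3.95% of all genes, and 0 lower).

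Other neuropeptide genes had 22 of 31 members above 0, against 52.3% of all genes, and a median of 0.09. At an unadjusted p under 0.05 4 were higher and 1 lower, against 3.95% and 3.03% of all genes. The granule protein gene Chga was at 1.28 in MHb and 1.08 in Sol but at 0.29 and 0.04 in LHb and MVe. Tac3, a tachykinin gene, was at 0.61 ± 0.68 and Adcyap1, which encodes PACAP, at 0.50 ± 0.37 (SD, n = 4 regions). Npy was lower in 4 of 4 regions at -0.51 ± 0.33. Neuron markers as a whole had a median of 0.21, with 10 of 14 above 0. Of these markers 3 were higher at an unadjusted p under 0.05, against 3.95% of all genes (0 without the Sol pair, 2 without LHb or MHb). Astrocyte markers had 0 of 11 above 0, against 52.3% of all genes, and a median of -0.14. The astrocyte median was -0.31 in LHb, -0.16 in Sol and -0.20 in MVe, but -0.0052 in MHb, where 5 of 11 lay above 0. Among them 2 were lower at an unadjusted p under 0.05, against 3.03% of all genes (0 without LHb or MVe, 1 without MHb or Sol). The astrocyte filament gene Gfap was at -0.42 ± 0.41 and the gap junction gene Gjb6 at -0.34 ± 0.08, while the neuronal genes Elavl4 and Slc17a6 were at 0.56 ± 0.40 and 0.45 ± 0.20. The part of these shifts in the neuropeptide values was not tested.

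**Figure D4:**
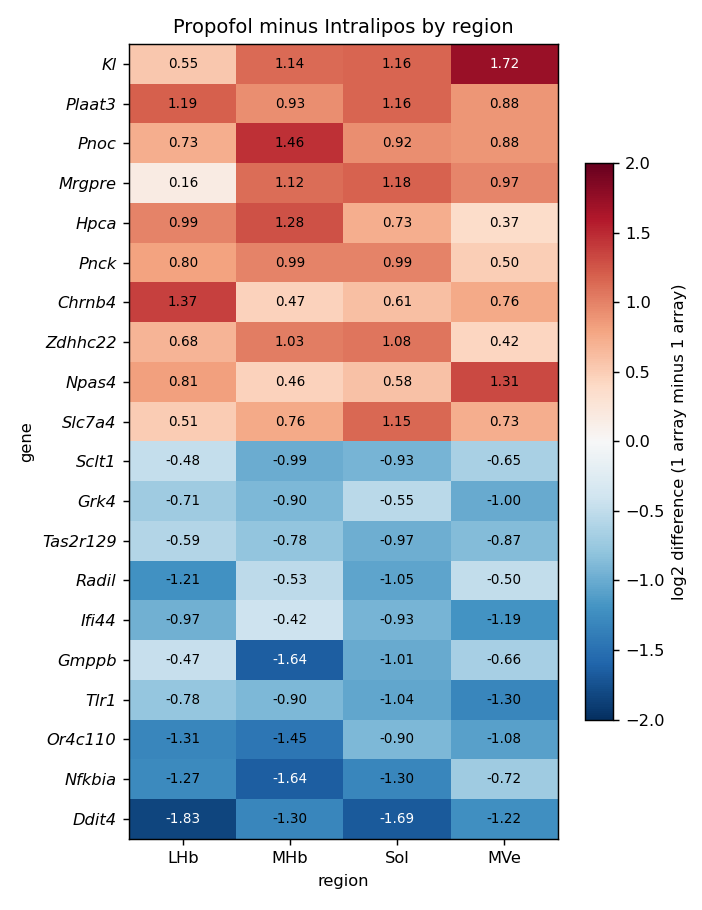
Log2 difference, propofol minus Intralipos, in each region (columns) for the 10 genes with the smallest p in each direction (lines), ordered by their mean. All 20 genes have the same sign in the 4 regions because the rule asked for it, and Ddit4 is the most negative on average.

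Next come the other genes with a higher level and the smallest p, none of which passed limma's test. Kl had propofol signals of 5.05, 5.81, 7.06 and 9.49 in LHb, MHb, Sol and MVe, against 4.51, 4.67, 5.90 and 7.77. It stood clear of the negative probe sets mainly in MVe, where it also differed most (1.72), and its mean of 1.14 ± 0.48 did not pass (adjusted p = 0.196). Hpca, which encodes the calcium sensor hippocalcin, was at 0.84 ± 0.39, Pnck, a calmodulin kinase gene, at 0.82 ± 0.23, and Zdhhc22, a palmitoyltransferase gene, at 0.80 ± 0.31. The orphan receptor gene Mrgpre was at 0.86 ± 0.47, with 0.16 in LHb and 0.97 to 1.18 elsewhere, and the amino acid transporter gene Slc7a4 at 0.79 ± 0.26. Chrnb4, the nicotinic receptor subunit that defines the medial habenula, was at 0.80 ± 0.40. Its largest difference was in LHb, at 9.95 with propofol and 8.58 with Intralipos, while in MHb it was at 14.64 with propofol and 14.17 with Intralipos. In the LHb pair the medial habenula markers as a list had a median of 0.62, against 0.0042 in the MHb pair, and the part of neighbouring tissue in the LHb value of Chrnb4 was not tested.

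Most of the remaining genes with a low p and a lower level were dim. Or4c110 was at 5.21, 4.84, 5.89 and 5.06 in LHb, MHb, Sol and MVe with propofol, against 6.52, 6.29, 6.80 and 6.14. Its groups do not overlap, which is the case for 0.771% of all genes in this direction (116 genes). Its mean of -1.18 ± 0.24 (SD, n = 4 regions) did not pass (limma, adjusted p = 0.0894). The Toll-like receptor gene Tlr1 (-1.01 ± 0.22), the bitter taste receptor gene Tas2r129 (-0.80 ± 0.16), Gmppb, of nucleotide sugar synthesis (-0.94 ± 0.52), and Radil (-0.82 ± 0.36) were likewise dim on all 8 arrays. Brighter were Sclt1, a centriole gene, at -0.76 ± 0.24 and, on 1 array only, the receptor kinase gene Grk4 at -0.79 ± 0.20.

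Immediate early genes are transcribed within minutes of neuronal activity, and a few of them stood far apart in single regions. Egr1 had propofol signals of 14.08, 7.77, 10.32 and 11.37 in LHb, MHb, Sol and MVe, against 12.02, 7.66, 9.46 and 6.81. The pair of arrays was nearly level in MHb and differed by 4.56 in MVe, and the mean of 1.90 ± 1.95 (SD, n = 4 regions) did not pass (limma, adjusted p = 0.681). Fos was at 1.84, 0.49, 0.25 and 2.33 and Nr4a1 at 1.57, -0.26, 0.44 and 2.86 in the same order. Npas4, which responds to calcium entry in neurons, was higher in 4 of 4 regions at 0.79 ± 0.38 and dim on all 8 arrays. Gadd45g went the other way in 3 regions, with -0.94 in LHb, -1.60 in MHb and -1.65 in Sol, and was at 0.27 in MVe.

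Over the whole list of 43 measured early genes 24 lay above 0, against 52.3% of all genes, and the median was 0.04. At an unadjusted p under 0.05 7 were higher and 1 lower, against 3.95% and 3.03% of all genes. Without the MVe pair 4 were higher and 3 lower, and without the LHb pair 6 and 3. The list median was 0.0018 in Sol and between 0.11 and 0.13 in the other regions, with 22 to 26 members above 0 in each, and it was -0.04 without the MHb pair. Chosen after their values were seen, Arc, a dendritic early gene, was at -0.04 and the factor gene Atf3 at -0.33.

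Receptor subunit genes come next, those of propofol's own target first. Of the 16 measured GABA-A receptor subunits 10 lay above 0, against 52.3% of all genes, and the median was 0.06. An unadjusted p under 0.05 was seen for 0 of them, against 6.98% of all genes, and 0 passed limma's adjusted test. The epsilon subunit gene Gabre was at 1.11 in Sol and 1.13 in MVe and at -0.05 and -0.27 in LHb and MHb, and only in Sol did it stand above the negative probe sets. Gabra3 was at 0.30 ± 0.36. The dim genes Gabrr1 and Gabra6 were at -0.44 ± 0.59 and -0.29 ± 0.66 (SD, n = 4 regions).

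AMPA, NMDA and kainate receptor subunits had 11 of 16 members above 0, against 52.3% of all genes, and a median of 0.16. The obligatory NMDA subunit gene Grin1 was at 0.53 ± 0.33 and Grin2a at 0.48 ± 0.28, each higher in 4 of 4 regions, and these were the 2 members with an unadjusted p under 0.05 and a higher level, against 3.95% of all genes. Grin2b was at 0.30 ± 0.26 and the AMPA subunit gene Gria3 at 0.25 ± 0.26. Nicotinic receptor subunits split, with 7 of 13 above 0, against 52.3% of all genes. Beside Chrnb4 the alpha4 subunit gene Chrna4 was at 0.47 ± 0.52, with 1.06 in LHb, while Chrnb3, another habenular subunit, was at -0.40 ± 0.49 with -0.86 in LHb and -0.76 in MHb. Chrna6 was at -0.39 ± 0.77 and dim.

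**Figure D5:**
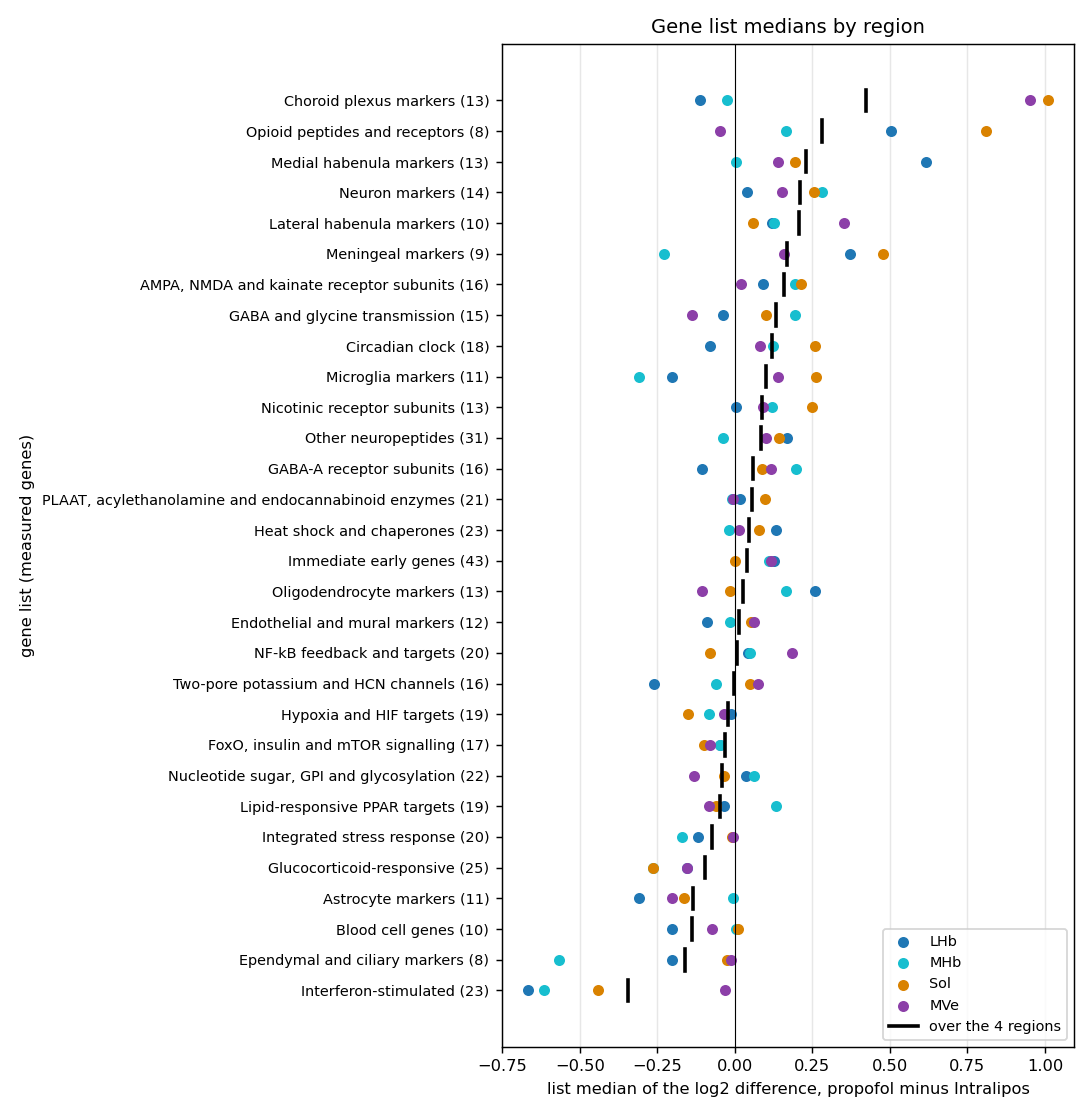
Median log2 difference, propofol minus Intralipos, of 30 gene lists in each region (points) and of the mean over the 4 regions (bars), with the number of measured genes in brackets. Interferon-stimulated genes stand lowest at -0.34 and choroid plexus markers highest at 0.42. The choroid plexus value comes from Sol and MVe.

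Taken 1 region at a time, differences have no replicate check. In LHb 129 genes (0.858%) were more than 2-fold higher and 105 (0.698%) lower, and in MHb 165 (1.1%) and 162 (1.08%). Sol had 234 higher (1.56%) and 143 lower (0.951%), a balance that turned to 162 higher and 201 lower once each array was centred on its median. MVe had 127 higher (0.845%) and 129 lower (0.858%). The most distant genes named here had 1 array of the pair at or above the median of all gene values, 6.69. That median lies under the 90th percentile of the negative probe sets (6.95 to 7.44). Hpse, Iqcg and Phlda1, named below, were dim.

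In LHb the early genes Egr1, Fos, Jun (1.85) and Nr4a1 held 4 of the 5 highest places, along with the synaptotagmin gene Syt15 (1.62). The lowest were Ddit4, the kinase gene Prkcd (6.76 with propofol, 8.29 with Intralipos), Filip1 (-1.48), Sgk1 and the potassium channel gene Kcnj12 (-1.34). In MHb the splicing factor gene Rbfox1 was highest, at 7.58 with propofol and 5.84 with Intralipos, followed by the kinase gene Hunk (1.65), Rin2 (1.59), the transcription factor gene Neurod6 (1.47) and Klhl20 (1.46). The lowest was the transporter gene Slc35g1, at 6.38 with propofol and 9.04 with Intralipos, before Lgals3bp (-1.94), the ubiquitin ligase gene G2e3 (-1.91), the protease inhibitor gene Cstb (-1.89) and the potassium channel gene Kcns2 (-1.79). Lgals3bp was higher with propofol in Sol and MVe (1.23 and 0.80).

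In Sol, Ttr, which encodes the choroid plexus protein transthyretin, was at 13.28 with propofol and 7.18 with Intralipos, a difference of 6.10. Its Sol signals in the other set, whose levels are not compared with these, were 12.18 with sevoflurane and 15.10 with O2. Saxo4 (2.44), Baiap2 (2.17), the epithelial gene Perp (2.04) and the AMPA receptor regulator gene Cacng5 (1.94) followed. Below Ddit4 came Gadd45g, the Mediator subunit gene Med20 (-1.55), Iqcg (-1.48) and the phosphodiesterase gene Pde5a (-1.45). In MVe, Egr1, Nr4a1 and Fos were followed by the heparanase gene Hpse (1.84) and the cholecystokinin receptor gene Cckbr (1.72). The lowest in MVe were the phosphatase gene Acp6 (-1.93), Rnf44 (-1.55), Ccdc51 (-1.48), Adck5 (-1.47) and the early gene Phlda1 (-1.43).

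Markers of the choroid plexus, which lies in the ventricles near these regions, were uneven. Of the 13 measured 11 lay above 0, against 52.3% of all genes, with a median of 0.42. At an unadjusted p under 0.05 5 were higher, against 3.95% of all genes, or 2 without the Sol pair and 3 without the MVe pair. The median was -0.11 in LHb and -0.02 in MHb, against 1.01 in Sol and 0.95 in MVe. The log2 of their summed level was 15.39 with propofol and 14.20 with Intralipos in Sol, and 19.11 with propofol and 18.60 with Intralipos in MVe. Otx2, a choroid transcription factor gene, was at 1.41 and 1.44 in Sol and MVe, and the channel gene Kcnj13 at 1.10 and 1.69. In Sol both lay under the 90th percentile of the negative probe sets on both arrays. Otx2 was at 5.67 there with propofol and 4.26 with Intralipos, and Kcnj13 at 5.15 and 4.05. Of the 5 list members whose mean level reached the median of all genes, 5 lay above 0. Among these 5, 1 was higher at an unadjusted p under 0.05, against 5.01% of genes this bright. Kl belongs to the list, and the part of choroid tissue in its difference was not tested. In Sol the Hox genes, which mark the hindbrain, had a median of 0.39 and the solitary nucleus markers one of 0.51, while in the other 3 regions the Hox median lay between -0.14 and -0.07.

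The effect of propofol was then compared between the habenula (LHb and MHb) and the hindbrain (Sol and MVe). No gene passed limma's test of this difference (0 genes), and 737 had an unadjusted p under 0.05 (4.9% of all genes). Of these 349 were higher in the habenula (2.32%) and 388 lower (2.58%). The smallest p values belonged to genes that are mostly dim. Myo1f, a myosin gene of leukocytes, was at -1.01 and -0.58 in LHb and MHb and at 1.34 and 0.96 in Sol and MVe (adjusted p = 0.764). Tmem198b, the sphingomyelin synthase gene Sgms2, the interferon-induced gene Mx1 and the choroid plexus gene Clic6 were likewise lower in the habenula, with Mx1 at -1.05, -1.12, 0.51 and 0.46. The opposite held for Klra2, Prss3, the triglyceride synthesis gene Dgat1, Or5p69b and the vitamin B12 receptor gene Cubn. Dgat1 was at 6.79 and 7.06 in LHb and MHb with propofol, against 6.09 and 6.37 with Intralipos. In Sol and MVe it was at 6.54 and 6.57 with propofol, against 7.10 and 7.70 with Intralipos, so both pairs turned over. Its difference of 1.54 ± 0.34 (moderated SE) did not pass (adjusted p = 0.959).

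The genes most like Ddit4 and Nfkbia over the 8 arrays were found by Pearson correlation after the mean of each region had been taken away, which leaves 4 independent differences. For Nfkbia they were Anxa3, an annexin gene (r = 0.9996), Psmb9, a subunit of the interferon-induced proteasome (0.998), Igfbp6 (0.996), the interferon-induced GTPase gene Irgm (0.995) and Fdx1 (0.995). Anxa3 was bright on all 8 arrays, at -0.70, -0.91, -0.71 and -0.44 in LHb, MHb, Sol and MVe, and Irgm was at -0.55 ± 0.22 (SD, n = 4 regions). Psmb9 and Igfbp6 were dim. For Ddit4 they were Cct6b (0.9996), Spopfm2l1, Or5t9b, Adamtsl3 and C7h12orf56, all dim on all 8 arrays with mean differences between -0.44 and -0.27. Once region means are removed, any gene that shifts the same way by a similar amount in all 4 regions scores high, whatever its size. C7h12orf56, at -0.27 on average, had r = 0.992 with Ddit4. With so few differences, correlations this high describe the arrays and were not tested.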

How the data were processed

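Each array has 1 log2 signal for each probe set, as deposited by the authors. Per the submitters' processing notes they used Affymetrix Expression Console 1.3.0. How probes were summarized, and on which genome build they were annotated, is not given in the sources used here. Signals ran from 2.47 to 19.93, which is the ground for taking the scale as log2. The table held 24834 probe sets, of which 94 were controls, 15049 had 1 gene symbol in the platform annotation and 9691 had none here. The brightest probe set of each symbol was kept, which left 15037 genes. No filter and no further normalization were applied. The 8 arrays were fitted with lmFit and eBayes of limma 3.58.1 (R 4.3.3), with treatment and region as terms, 3 residual degrees of freedom and two-sided tests. P-values were adjusted over all genes (Benjamini-Hochberg) and called under 0.05. A further fit added the difference between habenula and hindbrain (2 residual degrees of freedom). The 8 arrays alone were fitted because both sets of arrays look separately normalized. Region was the block throughout, because the groups hold the same 4 regions and levels differ by region. Across genes the propofol and Intralipos arrays of a region correlated at 0.992 to 0.993 (Pearson). Whether regions of 1 rat share a number is not stated, and the spread that the p-values rest on is over regions, not over rats. That spread is moderated, since eBayes draws each gene's variance toward that of all genes (8.205 prior against 3 residual degrees of freedom). A gene whose regions differ widely, such as Egr1 (SD 1.95, moderated SE 0.525), can thus have a low unadjusted p. The number of arrays limits the precision.

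Named were Ddit4, Nfkbia, Pnoc and Plaat3, the 10 smallest p in each direction with the same sign in 4 regions, up to 4 members with the largest difference of each list described, the 5 largest differences of each region and direction among genes with an array at the median of all gene values, the 5 smallest p per direction for habenula against hindbrain, and the 5 genes most like Ddit4 and Nfkbia. For any other gene the text says that it was picked with its values in view. Placeholder gene names were not printed. The members, tests and 34 gene lists (590 genes, 521 measured) were chosen with earlier results of these data known. Lists are described by counts and medians, and no list was tested. Median and sum of a list are over its measured members, the sum on the linear scale. The fit was tested on simulated arrays of 15037 genes, with 14 false calls. It recovered 8 of 50 genes changed by 0.5 on the log2 scale and 50 of 50 changed by 1. Noise there was drawn from the moderated variances, and genes changed by up to 2 were present at once. The recovery is therefore not the power in the real arrays, where Nfkbia at -1.23 did not pass. Alternatives changed the arrays fitted, the block, the probe sets, the filter on dim genes, the normalization, the variance model and the regions used. Figures were drawn with matplotlib 3.10.9 in Python 3.11.15.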

Additional observations from a re-analysis of the deposited data

Results flagged for a closer look

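Among the 4 regional differences of a named gene or list, 1 region stood far from the other 3 in 11 of the 157 cases looked at (7.01%), by a gap that chance gives in about 1 of 20 groups. Ttr was at 6.10 in Sol and between -0.24 and 0.52 elsewhere. Baiap2 was at 2.17 in Sol, against -0.47 to -0.12, Cacng5 at 1.94 in Sol, against -0.09 to 0.19, and Med20 at -1.55 in Sol, against 0.26 to 0.42. G2e3 was at -1.91 in MHb, against -0.09 to 0.24, and Gabra6 at 0.69 in MHb, against -0.71 to -0.48. In MVe Phlda1 was at -1.43, against 0.16 to 0.28, Nfkb2 at 0.54, against -0.84 to -0.62, and Adamtsl3 at -0.19, against -0.30 to -0.29. Ttr, Baiap2, Cacng5, Med20, G2e3 and Phlda1 had been named for a large difference in 1 region, so their standing apart follows from that choice. The median of the immediate early genes was 0.0018 in Sol, against 0.11 to 0.13, and that of the Hox genes 0.39 in Sol, against -0.14 to -0.07.

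In 8 of the 34 lists both habenular medians lay on one side of 0 and both hindbrain medians on the other. Habenula minus hindbrain was -1.05 for choroid plexus markers, -0.54 for solitary nucleus markers, -0.46 for microglia markers, -0.22 for two-pore potassium and HCN channels, -0.13 for vestibular markers and -0.11 for endothelial and mural markers. It was 0.27 for oligodendrocyte markers and 0.13 for genes of nucleotide sugars and glycosylation. These differences between lists were not tested.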

How the results depend on the processing

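The 1 gene past the test became 3 in the fit of all 16 arrays (Ddit4, Nfkbia, Or4c110), 2 with region within its set of arrays as the block (Ddit4, Or4c110), 3 among the brighter genes alone (Ddit4, Nfkbia, Plaat3) and 5 with trend and robust variance estimates (Ddit4, Plaat3, Nfkbia, Tlr1, Or4c110). It was 0 with no replicate block, where 166 genes had an unadjusted p under 0.05, 0 over all 23188 probe sets that are not controls (1563), and 0 without each region's pair in turn (823 to 1063). It stayed 1 with the mean of a gene's probe sets, quantile normalization and centring. Ddit4 lost its call with no replicate block (adjusted p = 0.9999), over all probe sets that are not controls and without each pair. Its change ran from -1.61 to -1.40 over these fits. Among the brighter genes the counts past 2-fold, higher and lower, were 67 and 25 in LHb, 59 and 64 in MHb, 109 and 35 in Sol and 32 and 35 in MVe. Centring gave 162 and 201 in Sol, which moves the share of higher ones, 234 and 143 as reported. Of the 272 list medians 264 moved by less than the spread over regions. Itgam turned to -0.0677 without the Sol pair. Of the 971 other values of the 84 genes named across regions, 956 kept their direction and side of the threshold. The filter on list members by brightness was added after the data were seen, and the causes of these changes were not tested. Labels do not tie regions to rats, and dim signals limit most of the genes named for a lower level.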

Other observations

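Genes of the circadian clock, which runs in the habenula as well as in the master clock of the hypothalamus, had 14 of 18 measured members above 0, against 52.3% of all genes, and a median of 0.12. In LHb 8 lay above 0 and 10 below, with a median of -0.08. At an unadjusted p under 0.05 3 were higher, against 3.95% of all genes (0 to 2 without each region's pair in turn). The repressor gene Bhlhe40 was higher in 4 of 4 regions, at 0.39 ± 0.28 (SD, n = 4 regions), and Cry1 in 3, at 0.44 ± 0.45. Rorb, a nuclear receptor gene of the clock, was at -0.45 ± 0.57, with -1.19 in MHb. None passed limma's adjusted test, and these genes were chosen after their values were seen.

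Lateral habenula markers had 9 of 10 members above 0, against 52.3% of all genes, and a median of 0.21, with 6, 6, 5 and 8 above 0 in LHb, MHb, Sol and MVe taken singly. Parm1 was higher in 4 of 4 regions, by 0.27 in MVe to 1.10 in LHb, and the serotonin receptor gene Htr5b was at 0.52 ± 0.51. The 1 member below 0 was Gap43, a gene of growing axons, at -0.24 ± 0.22. Ependymal and ciliary markers had 7 of 8 members below 0, against 47.7% of all genes, with a median of -0.57 in MHb and between -0.20 and -0.01 elsewhere. Only 2 of the 8 had a mean level that reached the median of all genes. Of these 1 lay above 0 and 1 below, with a median of 0.0078.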
